A study of Mus musculus with 11 samples.

Results

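The BTB zinc-finger genes named Zbtb, with Bcl6 and Bcl6b, were examined for chromatin accessibility in lymphoid cells that do or do not express PLZF, the product of Zbtb16. Protein-coding genes of the mm10 annotation (GENCODE M21) with a symbol of Zbtb and a number were taken, together with Bcl6 and Bcl6b, and Zbtb16 and Zbtb7b were left out. This gave 41 genes of 21951 in all. One of them, Zbtb8os, carries the symbol but encodes no zinc-finger protein and lies on the opposite strand next to Zbtb8a. Accessibility was measured by ATAC-seq, in which a transposase cuts into open chromatin, in 9 libraries from C57BL/6 mice. CD4SP thymocytes (conventional CD4 single positive T cells, 2 libraries) and NKT thymocytes (CD1d-restricted innate-like T cells, 2 libraries) came from the thymus. CLP (common lymphoid progenitors, 3 libraries) and ILCP (innate lymphoid cell precursors, 2 libraries) came from the bone marrow. NKT were sorted with the CD1d tetramer loaded with αGalCer, CLP as Lin- IL-7Rα+ cells with intermediate cKit and Sca-1 and high Flt3, and ILCP as Lin- IL-7Rα+ α4β7+ eGFP+ cells of a Zbtb16-IRESGFPcre reporter, so that ILCP were chosen by expression from the Zbtb16 locus itself. The mice were 4 to 8 weeks old, and the labels name no treatment and no deletion. NKT and ILCP, the PLZF-expressing types, were compared with CD4SP and CLP of the same tissue. Peaks of all libraries that shared at least 1 bp were merged into intervals, an interval was called open in a library when a peak of that library covered it, and the intervals that touched a gene body extended by 20 kb on each side were assigned to the gene. The 41 windows held 216 of the 71400 intervals, each counted once, of which 14 lay in more than 1 window.

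A BTB zinc-finger protein pairs through its BTB domain, which also recruits corepressors such as BCOR or the ubiquitin ligase scaffold CUL3, and binds DNA through C2H2 zinc fingers. Many members act as transcriptional repressors. PLZF, ThPOK (Zbtb7b) and Bcl6 are the best known in lymphocytes, where they direct innate-like effector, CD4 helper and follicular helper fates. An open interval is a stretch of accessible DNA, such as a promoter or an enhancer, and carries no measure of the transcript itself. Fewer cells with a site open and less opening per cell cannot be told apart in libraries made from sorted populations.

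The stretches of DNA behind the differences between cell types are shown first. Each is the central 200 bases of an interval, read 5′ to 3′ from the plus strand of GRCm38.p6 (mm10), and capitals mark the Runx motif TGTGGT or TGCGGT on either strand, because Runx1 is the factor the study examined. The intronic Zbtb20 stretch chr16:43321746-43321945 came from the only interval of these genes that was open in both NKT and both ILCP libraries and in no CD4SP or CLP library. The intronic Zbtb20 stretch chr16:43190402-43190601 was open only in ILCP and had the best mean rank of the ILCP intervals. The Bcl6 stretch chr16:23997286-23997485, 8.53 kb upstream of the gene, was open only in CD4SP and had the best mean rank of the CD4SP intervals. The Zbtb18 stretch chr1:177467259-177467458, downstream of the gene and over the first exon of the noncoding RNA gene Gm37306, was open in all 3 CLP libraries and in no ILCP library. The Zbtb32 stretch chr7:30607886-30608085, inside an intron of Upk1a, was open only in NKT. The intronic Zbtb38 stretch chr9:96696367-96696566 was open in the 4 thymic libraries only. The Zbtb18, Zbtb32 and Zbtb38 stretches were chosen after their values were seen, the first in place of the CLP interval of the best mean rank, which lay in the Zbtb17 window over a coding exon of Spen.
Zbtb20 NKT and ILCP: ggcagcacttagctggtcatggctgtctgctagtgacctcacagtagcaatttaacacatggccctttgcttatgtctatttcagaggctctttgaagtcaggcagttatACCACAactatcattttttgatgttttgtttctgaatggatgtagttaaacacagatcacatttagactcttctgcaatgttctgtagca
Zbtb20 ILCP: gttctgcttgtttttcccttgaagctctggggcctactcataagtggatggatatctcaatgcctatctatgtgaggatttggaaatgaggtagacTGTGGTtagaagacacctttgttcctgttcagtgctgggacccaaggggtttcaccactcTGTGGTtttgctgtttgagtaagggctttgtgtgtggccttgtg
Bcl6 CD4SP: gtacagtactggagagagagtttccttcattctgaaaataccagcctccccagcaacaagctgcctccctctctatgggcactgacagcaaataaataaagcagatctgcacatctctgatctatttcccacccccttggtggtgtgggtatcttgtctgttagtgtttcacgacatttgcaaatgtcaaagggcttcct
Zbtb18 CLP: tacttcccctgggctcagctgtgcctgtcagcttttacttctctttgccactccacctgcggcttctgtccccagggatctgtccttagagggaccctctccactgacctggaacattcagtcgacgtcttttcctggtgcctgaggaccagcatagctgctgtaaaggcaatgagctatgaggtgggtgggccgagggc
Zbtb32 NKT: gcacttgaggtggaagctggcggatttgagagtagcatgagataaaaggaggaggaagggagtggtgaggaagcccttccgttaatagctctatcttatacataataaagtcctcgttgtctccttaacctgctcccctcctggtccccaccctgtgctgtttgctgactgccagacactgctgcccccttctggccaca
Zbtb38 thymic: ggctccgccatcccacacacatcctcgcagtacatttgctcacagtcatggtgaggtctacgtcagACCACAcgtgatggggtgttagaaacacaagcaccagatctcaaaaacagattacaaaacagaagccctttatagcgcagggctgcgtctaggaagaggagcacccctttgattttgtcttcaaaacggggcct
The shared Zbtb20 stretch held 1 Runx motif, the ILCP stretch of Zbtb20 held 2 and the thymic Zbtb38 stretch held 1. The Bcl6, Zbtb18 and Zbtb32 stretches held 0 in these 200 bases.

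Start sites of 3 genes that differed in how many libraries had them open are shown as the 250 bases before the RefSeq start on the gene's own strand, with CpG dinucleotides in capitals. Bcl6 (chr16:23988853-23989102, minus strand) had 21 CpG and its start was open in the 4 thymic libraries and in CLP replicates 2 and 3. Zbtb17 (chr4:141444423-141444672, plus strand) had 19 CpG and its start was open in the 4 thymic libraries only. Zbtb32 (chr7:30598910-30599159, minus strand) had 5 CpG and its start was open in 0 of 9 libraries.
Bcl6 promoter: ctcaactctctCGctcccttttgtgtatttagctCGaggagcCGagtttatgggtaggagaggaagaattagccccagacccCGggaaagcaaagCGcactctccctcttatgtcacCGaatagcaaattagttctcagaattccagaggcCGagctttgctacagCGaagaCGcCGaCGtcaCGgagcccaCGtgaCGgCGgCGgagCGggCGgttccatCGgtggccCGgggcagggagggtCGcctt
Zbtb17 promoter: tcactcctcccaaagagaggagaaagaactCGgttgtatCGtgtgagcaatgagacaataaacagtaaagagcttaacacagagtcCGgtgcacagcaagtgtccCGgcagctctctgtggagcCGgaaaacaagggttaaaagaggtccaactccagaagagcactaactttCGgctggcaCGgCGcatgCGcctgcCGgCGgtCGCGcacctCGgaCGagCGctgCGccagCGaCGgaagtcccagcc
Zbtb32 promoter: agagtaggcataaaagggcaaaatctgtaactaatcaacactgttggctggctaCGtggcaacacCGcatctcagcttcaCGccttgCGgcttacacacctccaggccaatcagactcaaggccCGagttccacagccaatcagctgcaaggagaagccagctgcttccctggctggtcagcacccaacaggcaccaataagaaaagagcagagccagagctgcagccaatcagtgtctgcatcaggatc

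The libraries differed in how much was called, with 33648 to 38793 peaks in thymic libraries, 40136 and 41535 in CLP replicates 3 and 2, and 26328 and 25771 in ILCP. CLP replicate 1 stood apart with 19343 peaks, so the main counts that require every CLP library to be open or apart are given with and without it. Start sites of the T lineage markers Cd3e, Cd3g, Cd4, Themis, Lat and Bcl11b were open for 6 of 6 genes in each thymic library, for 1 or 2 in CLP and for 4 in ILCP. Of the CLP markers Flt3, Kit, Il7r and Dntt, 4 were open at their start in every CLP library, 4 and 2 in ILCP, 2 in each CD4SP library and 2 and 3 in NKT. Flt3 was open in no thymic library, while Il7r and Dntt were open in all 4 thymic libraries and not in ILCP replicate 2. The Zbtb16 start was open in both NKT libraries, both ILCP libraries and CLP replicate 2, and in no CD4SP library. The B cell markers Cd79a and Pax5 were open at their start in 0 of 9 libraries. Of 3 myeloid genes (Lyz2, Csf1r, Itgam), Itgam was open in the 4 thymic libraries and Csf1r in CLP replicate 3. Of 2 CD8 genes (Cd8a, Cd8b1), 2 were open in CD4SP replicate 2 and 1 in each of CD4SP replicate 1, NKT replicate 2 and CLP replicate 2, and of 2 erythroid genes Gata1 was open in CD4SP replicates 1 and 2 and NKT replicate 2. Of the labelled types' own markers, Klrb1c of NKT was open in 0 of 9 libraries and Tcf7, listed for ILCP, was open at its start in the CD4SP libraries only. The part of other cell types in the results was not tested.

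All 41 genes had intervals in their windows, with a median of 4 per gene, which was also the median over the 17744 protein-coding genes with at least 1 interval. Zbtb20 (30 intervals over a gene of 767 kb), Zbtb38 (12), Zbtb46 (10) and Zbtb7c (9) had the most, followed by Bcl6 and Zbtb7a with 8 each. The 216 intervals were open as 121 and 142 in CD4SP, 120 and 150 in NKT, 70, 125 and 121 in CLP, and 81 and 75 in ILCP. Per 10000 open intervals of each library these were 36.2 to 39.8 in the thymic libraries, 37.8, 30.6 and 30.7 in CLP, and 32 and 30.3 in ILCP. Zbtb6 and Zbtb26, whose annotated gene bodies overlap on the same strand and which share their 4 intervals, had all 4 open in every library. At the other end, Zbtb40 had between 2 and 4 intervals open in thymic libraries and 0 in every bone marrow library.

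**Figure D1:**
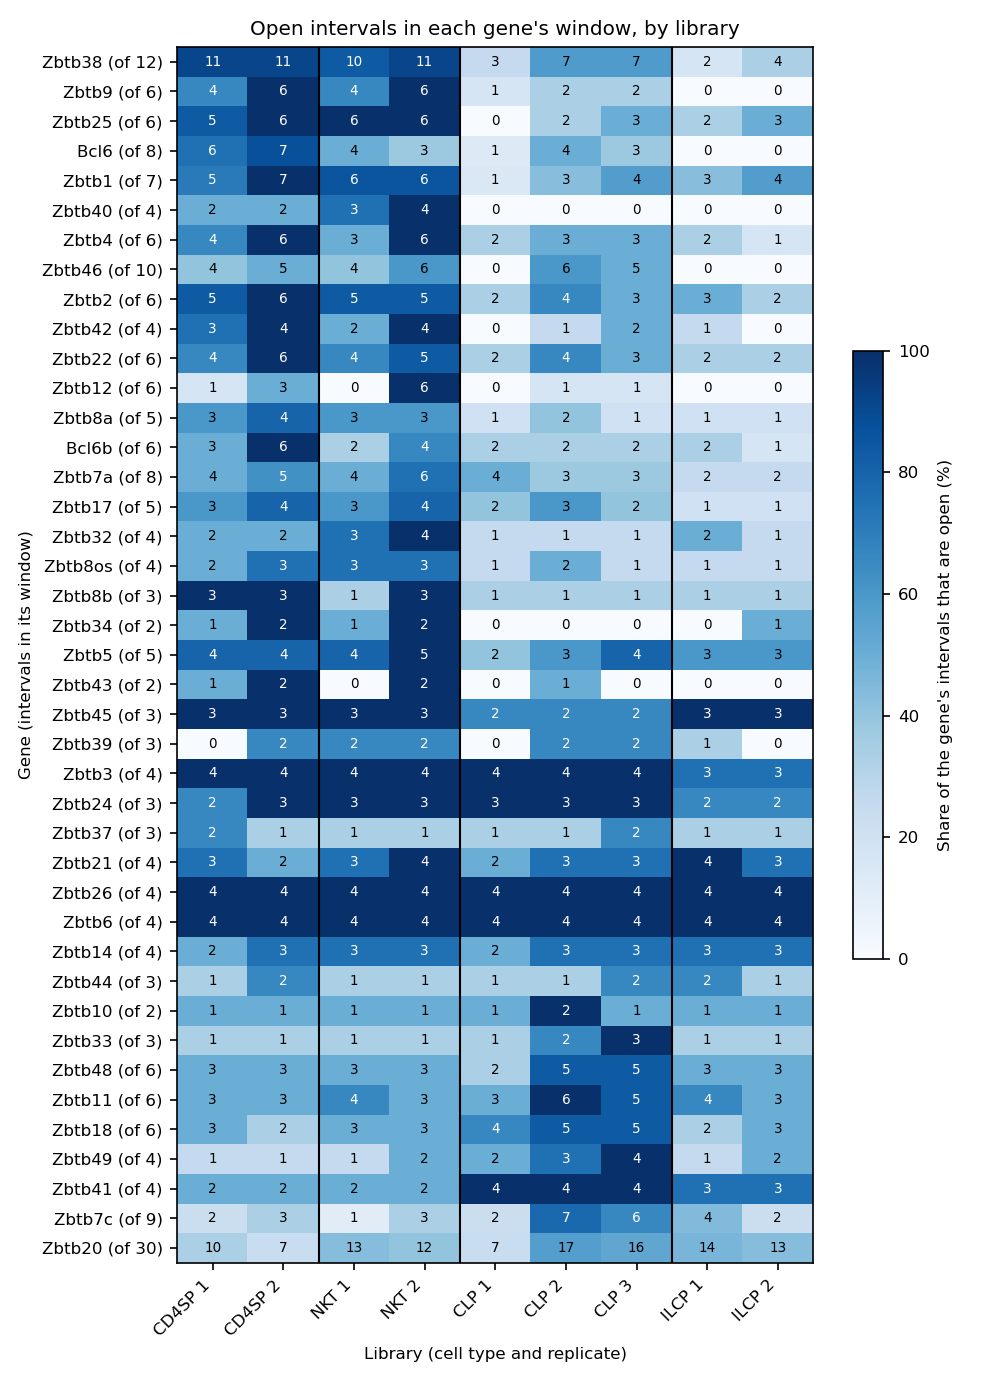
Number of open intervals in the window of each of the 41 genes (rows, with the gene's total in brackets) in each of the 9 libraries (columns); the colour gives the share of the gene's intervals that were open, in percent. Rows run from the largest excess in thymus (Zbtb38, 6.15 intervals) to the largest excess in bone marrow (Zbtb20, with a thymus minus bone marrow difference of -2.9), and CLP replicate 1 is paler than the other CLP libraries in most rows.

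Most of these genes had a start site open in several cell types. A coding transcript's start was open in all 9 libraries for 21 genes (51.2%, against 38.4% of 17666 genes with an interval and an annotated start), among them Zbtb7a (LRF, a regulator of B and T lineage choice), Zbtb24 (mutated in an immunodeficiency with centromere instability), Zbtb33 (Kaiso), Zbtb2 and Zbtb48 (the telomere-binding TZAP). It was open in 0 libraries for 3 genes, Zbtb10, Zbtb8b and Zbtb32 (7.32%, against 26%). The remaining 17 genes had a start open in some libraries. Without CLP replicate 1, it was open in all 8 libraries for 23 genes (56.1%, against 41.3%). The start was open in every library of the type for 32 genes in CD4SP (78%, against 58.9% of all genes), 29 in NKT (70.7%, against 59.3%), 22 in CLP (53.7%, against 46.4%) and 24 in ILCP (58.5%, against 45.9%). CLP replicates 2 and 3 alone gave 30 genes (73.2%, against 64.8%), so the place of CLP in this order turned with CLP replicate 1. Zbtb17 (Miz-1, a partner of Myc) and Zbtb40 had starts open in all 4 thymic libraries and in no bone marrow library. Zbtb8a had its start open in both CD4SP libraries and in no other, at upper ranks of 95.8% and 75.9% of their peaks by score, where 0% is the highest score of a library, so both were low-scoring peaks. Zbtb9 had its start open in every CD4SP, NKT and CLP library and in neither ILCP library. Intervals that covered a protein-coding start made up 72 of the 216 (33.3%, against 18.2% of all intervals), 32 of them only the start of a neighbouring gene. Of these 72, 54.2% were open in all 9 libraries, against 47.1% of all start-site intervals. Of the 144 that covered no start, 3.47% were open in all 9 libraries, against 5.75%. In all 8 libraries without CLP replicate 1 these shares were 56.9%, against 50.9%, and 5.56%, against 7.77%.

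Between NKT and CD4SP thymocytes, Zbtb20, Zbtb32 and Zbtb40 had more open intervals in every NKT library than in every CD4SP library, and Bcl6 had the reverse. A gene was called when every library of one type was above every library of the other. The 3 genes called above in NKT were 7.32% of the family, against 8.3% of all genes, and the 1 gene called below was 2.44%, against 6.2%, so neither share exceeded the background. Per 10000 peaks of each library the balance turned, with 3 genes above in NKT (7.32%, against 10.5%) and 6 below (14.6%, against 16.3%). With 2 libraries against 2, an exact permutation test cannot give a p below 0.333 (two-sided). The median difference was 0 over the 41 genes and 0 over all genes. Zbtb20 had 10 and 7 open intervals in CD4SP and 13 and 12 in NKT. The libraries did not overlap, and the means were 8.5 ± 2.12 and 12.5 ± 0.707 (SD, n = 2 each). Zbtb32 (PLZP or ROG, a repressor of GATA3 activity in T cells) had 2 and 2 in CD4SP and 3 and 4 in NKT. The NKT-specific interval, at -9.08 kb and inside Upk1a, ranked at 96.7% and 64.1% of NKT peaks, and a further one at -14.9 kb was open in NKT replicate 2 alone. Zbtb40 had 2 and 2 in CD4SP and 3 and 4 in NKT, with the NKT-specific interval at -19.9 kb at ranks of 78.7% and 74.2%. When each library was cut to its 19343 highest-scoring peaks, 0 of these 4 genes kept libraries that did not overlap. The differences were then 1.5 for Zbtb20, 0.5 for Zbtb40, 0 for Zbtb32 and -1 for Bcl6. Leaving out CD4SP replicate 1 or 2 or NKT replicate 1 or 2 gave 5, 9, 9 and 4 genes above in NKT, which were 12.2%, 22%, 22% and 9.76% of the family, against 10%, 21%, 23.1% and 11.2% of all genes. The same omissions gave 7, 2, 1 and 9 genes below, or 17.1%, 4.88%, 2.44% and 22%, against 16.4%, 8.74%, 8.6% and 16.2%, where fewer libraries can only add calls under this rule.

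Bcl6, the repressor that directs follicular helper T cells and germinal centres, had fewer open intervals in each PLZF-expressing type than in its control. Of its 8 intervals, 6 and 7 were open in CD4SP, 4 and 3 in NKT, 1, 4 and 3 in CLP, and 0 and 0 in ILCP. Neither pair of types overlapped, and the ILCP libraries had no peak anywhere from 20 kb upstream to 20 kb downstream of the gene. The means were 6.5 ± 0.707 in CD4SP and 3.5 ± 0.707 in NKT (SD, n = 2 each), and 2.67 ± 1.53 in CLP (SD, n = 3) and 0 ± 0 in ILCP (SD, n = 2). The difference from CLP was -2.67 with an exact permutation p of 0.2, where the smallest possible is 0.1. The sum of both differences was -5.67, with an exact p of 0.0333 when labels were permuted within each tissue (two-sided, 60 arrangements, smallest possible 0.0167). Without CLP replicate 1 the sum was -6.5 with an exact permutation p of 0.0556, which was the smallest that the remaining 36 arrangements gave any gene. Bcl6 was the only 1 of the 41 genes with an exact p under 0.05 for this sum (2.44%, against 1.78% of all genes), and its adjusted p over the 17744 genes was 0.989 by the Benjamini-Hochberg method. No gene of the 17744 passed an adjusted p of 0.05 for the sum. The upstream intervals at -8.53 and -19.4 kb were open in CD4SP only, at ranks of 48.7% and 65.9% for the former and 94.2% and 73.5% for the latter. An interval at -2.6 kb was open in the 4 thymic libraries only, with ranks from 40.3% to 94%. The start-site interval chr16:23987933-23989477, over the promoter printed above, was open in the 4 thymic libraries at ranks of 29.3% to 45% and in CLP replicates 2 and 3 at 48.4% and 47.9%. The intronic interval chr16:23981957-23983306 was open in every library but ILCP, at 53.9% to 66.4% in thymus and at 89.3%, 47.1% and 38.5% in CLP. Cut to 19343 peaks per library, Bcl6 still had fewer in ILCP than in CLP (difference -1.67, libraries apart). With the upper 50% of each library's peaks (-2) or only the intervals nearest its own start (-0.667), its CLP and ILCP libraries overlapped. The own-start setting left out the intronic intervals of Bcl6. Their nearest start was that of the gene model Gm37419, which lies in the same start-site interval as the Bcl6 start. With 19343 peaks the NKT libraries of Bcl6 no longer lay below both CD4SP libraries (difference -1), nor did they with the upper 50% or with windows of 5 kb (-1 in each).

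**Figure D2:**
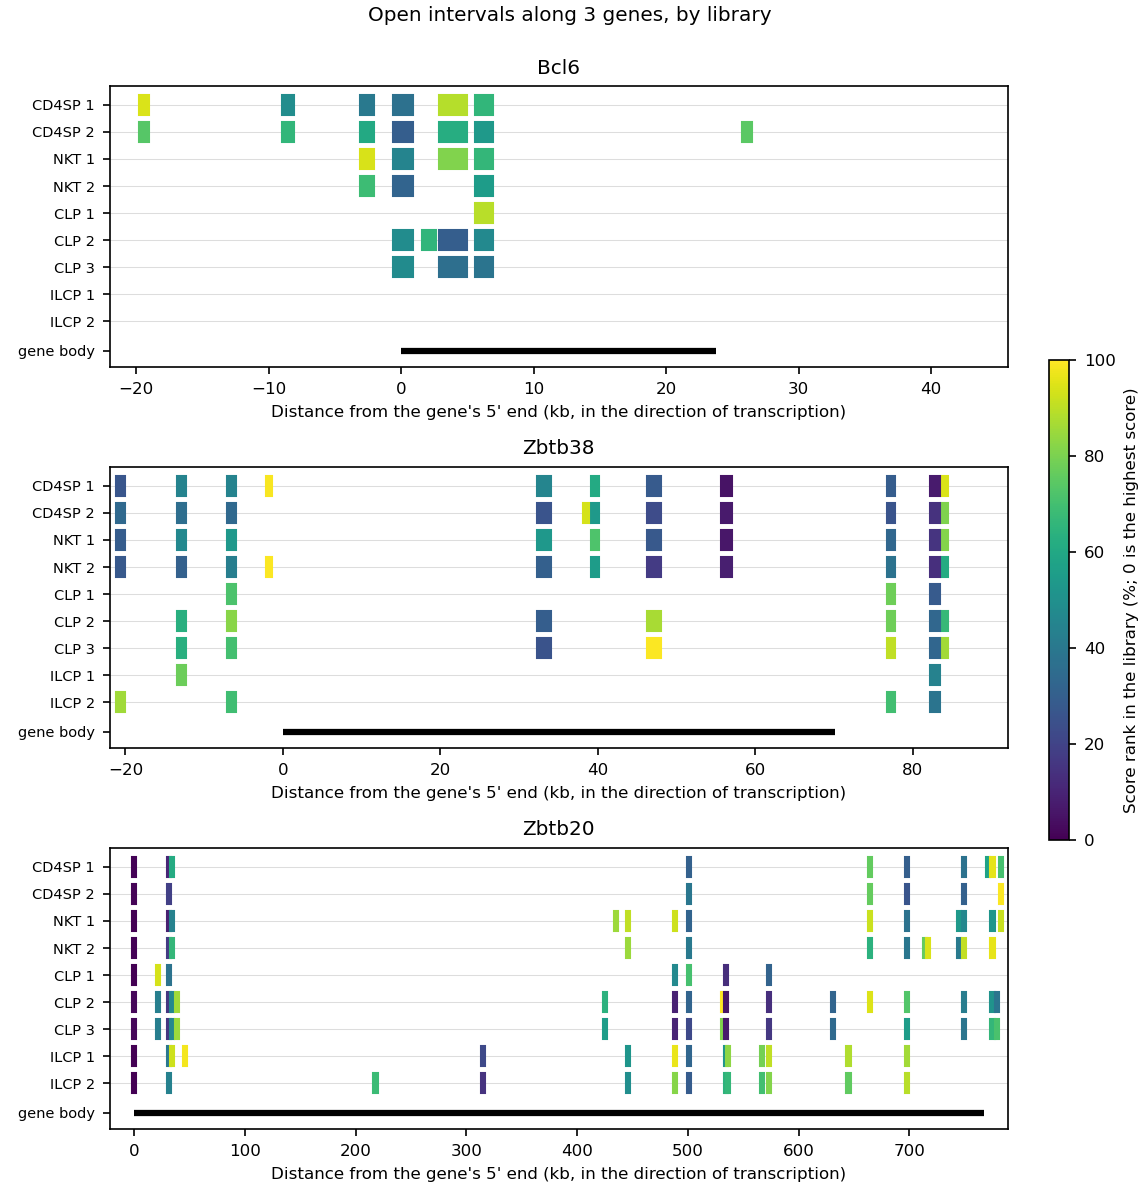
Open intervals along Bcl6, Zbtb38 and Zbtb20 (distance from the gene's 5′ end in kb, in the direction of transcription) in each of the 9 libraries. Each block is an interval open in that library, drawn to scale or at a minimum visible width, its colour is the rank of its best peak by score in that library (0% is the highest), and the black bar is the gene body; the Bcl6 rows of both ILCP libraries are empty, and the Zbtb38 interval at 56.4 kb appears in the 4 thymic rows only.

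Zbtb20, which acts in plasma cells, liver and brain, had intervals along its long gene that were open in 1 or a few cell types. It had 17 and 16 open in CLP replicates 2 and 3, 7 in CLP replicate 1, and 14 and 13 in ILCP. The CLP and ILCP counts overlapped (difference 0.167, exact permutation p = 1), and without CLP replicate 1 both ILCP libraries lay below both CLP libraries. The interval over the first base of the gene model, chr16:42874314-42877302, ranked within the upper 0.159% to 1.8% of peaks in all 9 libraries. Of the 8 intervals specific to ILCP against CLP in the whole family, 5 lay in Zbtb20 introns. The strongest, chr16:43190027-43190975, 315 kb into the gene, ranked at 22% and 14.8% in ILCP and was open in no other library. The next of these 5, chr16:43321407-43322284 at 446 kb, ranked at 52.3% and 48.9% in ILCP and at 90.6% and 84.9% in NKT, and was the shared stretch printed above. The other 3, at 536, 567 and 645 kb, were open in ILCP only, at ranks of 66.5% to 88.2%. Intervals at 534 and 573 kb were open in all 5 bone marrow libraries and in no thymic library. The former ranked at 5.85% to 13.2% in CLP and at 52.1% and 64.1% in ILCP, and the latter at 13.5% to 31.5% in CLP and at 90.3% and 81.5% in ILCP. A start of a coding transcript at 488 kb was open in the 5 bone marrow libraries, with ranks of 46.9%, 9.05% and 10.1% in CLP and 96.6% and 82% in ILCP, and in the thymus in NKT replicate 1 alone at 92.2%. Ranks are relative to peak lists of different lengths, and no order of cell types is read from them. The NKT-specific interval chr16:43619993-43621025 lay over a UTR exon at 745 kb, at ranks of 53.6% and 40.9%, and its nearest protein-coding start was that of Tigit, an inhibitory T cell receptor.

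Between ILCP and CLP, 8 genes had more open intervals in every CLP library than in every ILCP library, and Zbtb45 had the reverse. The 8, which were Zbtb41, Zbtb18, Zbtb17, Zbtb24, Zbtb7a, Bcl6, Zbtb9 and Zbtb3, made up 19.5% of the family, against 9.72% of all genes, and the 1 gene above in ILCP was 2.44%, against 4.28%. Without CLP replicate 1, 20 genes (48.8%) lay below in ILCP, against 47.7% of all genes, and 1 above (2.44%), against 4.28%. Per 10000 peaks of each library, with CLP replicate 1 kept, the balance turned, with 5 genes below in ILCP (12.2%, against 19.5%) and 7 above (17.1%, against 16.3%). The ILCP libraries also had fewer peaks than CLP replicates 2 and 3, and the part of this in the counts was not tested. The median difference was -0.5 over the 41 genes and -0.5 over all genes, and no exact p below 0.1 was possible with 2 libraries against 3. Cut to 19343 peaks per library, 3 of the 8 genes kept libraries that did not overlap, which were Zbtb24, Bcl6 and Zbtb9, and with the upper 50% of peaks 1 did, which was Zbtb17. Leaving out ILCP replicate 1 or 2 gave 2 and 3 genes above in ILCP (4.88% and 7.32%, against 6.3% and 6.41%) and 10 and 10 below (24.4% in each, against 14.7% and 13.7%), where fewer libraries can again only add calls. Zbtb18 (RP58, a repressor known from cortical neurons) had 4, 5 and 5 open intervals in CLP and 2 and 3 in ILCP. All CLP libraries lay above, with a difference of -2.17 (exact permutation p = 0.1). The Zbtb18 difference was -0.167 with 19343 peaks per library and -0.333 with the upper 50%, and it turned to 0.5 with intervals over 1 kb from any start. Its downstream interval chr1:177466638-177468078 ranked at 25.8%, 19.8% and 25.7% in CLP, was absent from ILCP and NKT, and appeared in CD4SP replicate 1 at 92.7%. Zbtb9 had 1, 2 and 2 in CLP and 0 and 0 in ILCP, and 4 to 6 in the thymic libraries. Of its 6 intervals, 2 lay nearest its own start and the others nearest the start of Ggnbp1 or Bak1. With those 2 alone, its thymus minus bone marrow difference was 1.4 instead of 4 intervals, with the libraries still apart. The Zbtb9 start-site interval, chr17:26972436-26973801, ranked at 65.5%, 38.8% and 46.7% in CLP. Zbtb17 had 2, 3 and 2 in CLP and 1 and 1 in ILCP, and the CLP-specific interval in its window, chr4:141477139-141478486, ranked at 18.1%, 19.2% and 17.6% but lay over a coding exon of Spen. Zbtb7a had 4, 3 and 3 in CLP and 2 and 2 in ILCP. Its CLP-specific interval, chr10:81133936-81134990, lay 0.757 kb upstream of the gene and was open in no thymic library either, while the start-site interval next to it ranked within the upper 0.049% to 8.87% in thymus and CLP replicates 2 and 3, at 19% in CLP replicate 1 and at 27.6% and 49.1% in ILCP. Zbtb24 had 3, 3 and 3 in CLP and 2 and 2 in ILCP, and the interval that differed lay nearest the start of Mical1. Zbtb41 had 4, 4 and 4 in CLP and 3 and 3 in ILCP, the difference being an interval 8.62 kb upstream that was open in CLP only. Zbtb3 had 4, 4 and 4 in CLP and 3 and 3 in ILCP, through an interval over the start of Polr2g. Zbtb45 had 2, 2 and 2 in CLP and 3 and 3 in ILCP. The added interval, chr7:12987024-12988245, ranked at 24.9% and 25.2% in ILCP, was also open in the 4 thymic libraries, and lay nearest the start of Zfp446.

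**Figure D3:**
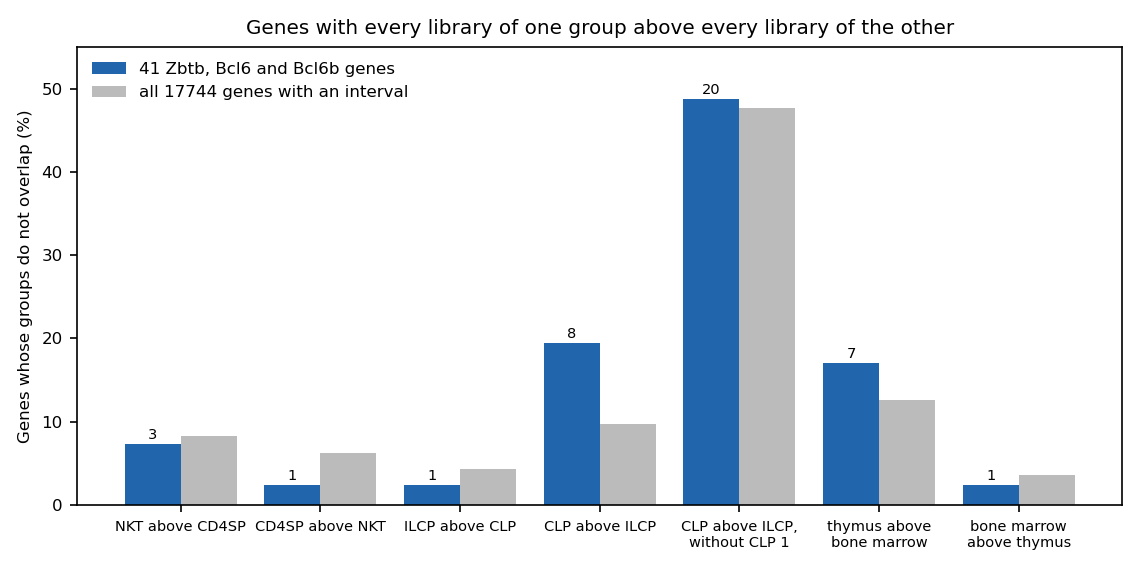
Percent of genes in which every library of the first group lay above every library of the second, for the 41 genes (blue, with the number of genes above each bar) and for all 17744 genes with an interval (grey). The CLP above ILCP bars stand at 19.5% and 9.72% with all libraries and at 48.8% and 47.7% without CLP replicate 1.

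Between the tissues, most of the genes that differed had more open intervals in thymus. Of the 41 genes, 7 had every thymic library above every bone marrow library (17.1%, against 12.6% of all genes), which were Zbtb38, Zbtb9, Zbtb25, Zbtb1, Zbtb40, Zbtb2 and Zbtb8a, and 1, Zbtb41, had every bone marrow library above (2.44%, against 3.58%). Without CLP replicate 1, 8 genes lay above in thymus (19.5%, against 12.7%), Zbtb7a being added, and 1 below (2.44%, against 6.8%). Per 10000 peaks of each library, 9 genes lay above in thymus (22%, against 16.6%) and 4 below (9.76%, against 10.5%). An exact permutation test over the 9 libraries (two-sided, smallest possible p 0.00794) gave a p under 0.05 for 19 genes (46.3%), against 30.3% of all genes. Of these, 18 were higher in thymus (43.9%, against 23.2%) and 1 was lower (2.44%, against 7.09%). The 18 are not all separate loci, since all 4 intervals of Zbtb8os were also assigned to Zbtb8a, and Zbtb1 and Zbtb25 share 5. After adjustment over the 17744 genes none passed 0.05, which was 0% of all genes too, since the smallest adjusted p was 0.0631. The median difference was 1.25 intervals over the 41 genes and 0.4 over all genes. Tissue and cell type cannot be told apart in this contrast. Zbtb38, which binds methylated CpG, had 11, 11, 10 and 11 open intervals in thymus, 3, 7 and 7 in CLP and 2 and 4 in ILCP, a difference of 6.15 (exact permutation p = 0.00794). Its intronic interval chr9:96695766-96697167, whose sequence is printed above, ranked at 4.73% and 6.8% in CD4SP and at 5.95% and 8.59% in NKT and was absent from all 5 bone marrow libraries. A coding start at 33.2 kb into the gene was open in thymus and in CLP replicates 2 and 3 and in neither ILCP library. Zbtb1, which is needed for lymphoid development, had 5, 7, 6 and 6 in thymus, 1, 3 and 4 in CLP and 3 and 4 in ILCP. Its neighbour Zbtb25 shares 5 intervals with it and is read from the opposite strand, so the gene pair is not independent, and Zbtb25 had 5, 6, 6 and 6 in thymus and 0, 2, 3, 2 and 3 in bone marrow. The start-site interval of both, chr12:76368798-76371826, ranked at 24.8% and 12.5% in CD4SP and at 79.3% and 13.2% in NKT. It was missing from CLP replicate 1, and ranked at 15.1% and 15.5% in CLP replicates 2 and 3 and at 80% and 99.3% in ILCP. Zbtb2 had 5, 6, 5 and 5 in thymus and 2, 4, 3, 3 and 2 in bone marrow. Zbtb41 had 2 in every thymic library and 3 or 4 in every bone marrow library, and 1 of the 2 intervals behind this lay 6.19 kb from the start of its neighbour Aspm. Cut to 19343 peaks per library, Zbtb38, Zbtb25, Zbtb1 and Zbtb9 kept every thymic library above every bone marrow library, and Zbtb40, Zbtb2 and Zbtb8a did not.

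Of the 9 genes with a known lymphoid or immune role, 2 were called above and 1 below in NKT, 4 were called below in ILCP and 1 above in thymus, and 5 had an exact permutation p under 0.05 with thymus higher. Over all genes these calls took 8.3%, 6.2%, 9.72%, 12.6% and 23.2%, respectively, and the same shares stand beside the counts of the lists that follow. The genes of this list not yet described were Bcl6b and Zbtb46. Bcl6b, a Bcl6 homologue of memory CD8 T cells, had 3 and 6 open intervals in CD4SP, 2 and 4 in NKT, 2, 2 and 2 in CLP and 2 and 1 in ILCP. Its start was open in CD4SP replicate 2 alone, at a rank of 75%, and 3 of its 6 intervals lay over starts of neighbours. Zbtb46, the marker of classical dendritic cells, had 4 and 5 in CD4SP, 4 and 6 in NKT, 0, 6 and 5 in CLP and 0 and 0 in ILCP. Of its 10 intervals, 6 lay nearest its own start. The others, each open in most or all thymic libraries, lay nearest the start of Zgpat or Lime1. Intronic intervals at 16.2 and 21.1 kb were open in CLP replicates 2 and 3 and in no other library. The Zbtb46 start was open in those 2 libraries at 53.8% and 42.5% and in CD4SP replicate 2 and NKT replicate 2 at 95.4% and 97.4%. CLP replicate 1 had 0 as the ILCP libraries did, so the gene was called below in ILCP only without that library. Of the 3 genes that bind methylated CpG, Zbtb38 was called above in thymus, and Zbtb38 and Zbtb4 had an exact permutation p under 0.05. Zbtb4 had 4, 6, 3 and 6 in thymus and 2, 3, 3, 2 and 1 in bone marrow (exact permutation p = 0.0238), with its start open in both CD4SP libraries and in NKT replicate 2. Of its 6 intervals, 1 lay nearest its own start, and the others lay nearest the starts of Polr2a, Chrnb1, Fgf11 or Tmem102. Zbtb33 had its start open in every library, with a further interval 7.89 kb upstream in CLP replicates 2 and 3 and one 17.8 kb downstream in CLP replicate 3 alone. Among 6 BTB zinc-finger genes with other symbols, Mynn and Gzf1 were called above and Patz1 below in NKT, 0 were called between ILCP and CLP, and Patz1 was called above in thymus. Among the genes Bcor, Ncor1, Sin3a, Hdac3 and Cul3 for partners of the BTB domain, Cul3 was called below in NKT, Sin3a below in ILCP, and 0 between the tissues. With so few genes in each list the counts are a description, and nothing is read from them about the lists.

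The remaining genes, given so that every member is accounted for, were chosen after their values were seen and fell into several kinds. Zbtb22, Zbtb42, Zbtb5, Zbtb34, Zbtb8b and Zbtb8os had an exact permutation p under 0.05 with thymus higher, although thymic and bone marrow libraries overlapped. Zbtb22 had 4, 6, 4 and 5 open intervals in thymus and 2, 4, 3, 2 and 2 in bone marrow, and Zbtb42 had 3, 4, 2 and 4 in thymus and 0, 1, 2, 1 and 0 in bone marrow. Intervals nearest the gene's own start were 1 of 6 for Zbtb22, 2 of 4 for Zbtb42 and 1 of 5 for Zbtb5. They were 2 of 2 for Zbtb34, 0 of 3 for Zbtb8b and 1 of 4 for Zbtb8os. Zbtb12 stood apart by library rather than by type, with 1 and 3 in CD4SP, 0 and 6 in NKT, 0, 1 and 1 in CLP and 0 and 0 in ILCP. More intervals were open in CLP replicates 2 and 3 than elsewhere for Zbtb11 (6 and 5, against 3 or 4), Zbtb48 (5 and 5, against 2 or 3), Zbtb49 (3 and 4, against 1 or 2) and the long gene Zbtb7c (7 and 6, against 1 to 4). These were the 2 libraries with the most peaks. Zbtb37, Zbtb21, Zbtb14, Zbtb44 and Zbtb10 differed between any 2 libraries by at most 2 intervals, as did Zbtb39 and Zbtb43.

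Intervals specific to 1 type of a pair are given beside their share over the genome, and the differences between these shares were not tested. Of the 216, 8 were open in both NKT and no CD4SP library (3.7%, against 4.3% of all intervals) and 4 in both CD4SP and no NKT library (1.85%, against 3.46%). Leaving out CD4SP replicate 1 or 2 or NKT replicate 1 or 2 gave 10, 15, 20 and 11 intervals specific to NKT (4.63%, 6.94%, 9.26% and 5.09%, against 5.17%, 7.24%, 8.56% and 6.53% of all intervals). It gave 13, 7, 7 and 14 specific to CD4SP (6.02%, 3.24%, 3.24% and 6.48%, against 6.98%, 5.75%, 4.84% and 6.23%). The NKT intervals of the best mean rank were the one near Tigit, then chr2:181410483-181411527, over a UTR exon 48.4 kb into Zbtb46 at 57.4% and 41.3%, and chr16:97963840-97964808, 1.7 kb upstream of Zbtb21 at 68.7% and 82.4%. The Zbtb46 interval was also open in CLP replicate 2 at 97.2%, and the Zbtb21 interval in CLP replicates 2 and 3 and in ILCP replicate 1. In bone marrow, 8 were specific to ILCP (3.7%, against 6.34%) and 12 to CLP (5.56%, against 5.97%). Without CLP replicate 1 these were 8 (3.7%, against 6.35%) and 42 (19.4%, against 22.2%). The ILCP interval chr16:97948627-97949458, over a UTR exon of Zbtb21 and inside an intron of C2cd2, ranked at 41.8% and 30.5% in ILCP, and it was open in CD4SP replicate 1 at 93.7% and in NKT replicate 2 at 82.2%. An interval open in every NKT and ILCP library and in no CD4SP or CLP library was found 1 time (0.463%, against 0.605%), in Zbtb20. The opposite pattern was found in an intron of Zbtb7c, 33.4 kb into the gene. That interval was open in every CD4SP library (ranks of 91.4% and 86.8%) and every CLP library (57.5%, 72.2% and 61%), and in no NKT or ILCP library. Its share over all intervals was not counted. Another 44 intervals were open in all 9 libraries (20.4%, against 13.3%), and 49 in all 8 without CLP replicate 1 (22.7%, against 15.6%). By tissue, 16 were open in all 4 thymic libraries and no bone marrow library (7.41%, against 7.04%) and 4 in all 5 bone marrow libraries and no thymic library (1.85%, against 2.04%). Without CLP replicate 1 these were 16 (7.41%, against 7.05%) and 4 (1.85%, against 3.58%). The 4 were 2 in Zbtb20, 1 downstream of Zbtb18 and 1 downstream of Zbtb41. A further 36 were open in 1 library only (16.7%, against 18%). By position, 39 covered a start of the gene they were assigned to, 53 lay in introns, 2 in coding exons, 6 in UTR exons, 53 upstream and 63 downstream, and for 127 of the 216 (58.8%) the nearest protein-coding start was that of a gene of the family. The midpoints of 59 intervals (27.3%) lay inside another protein-coding gene.

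A Runx motif stood in the central 200 bases of 57 of the 216 intervals (26.4%), against 28.5% of all intervals on assembled chromosomes. It was found in 16.7% of intervals over a start site, against 15.7%, and in 31.2% of the others, against 31.4%. The E-box CAGCTG, searched in the same way and listed for scale, stood in 10.6% of the intervals, against 14.2%. In the 250 bases before the RefSeq start, which were given for 36 of the 41 genes, a Runx motif was present in 8 (22.2%), against 17.6% of 16522 genes. The median number of CpG in these 250 bases was 21.5, against 10 over the 16522 genes. The median was 22 (8 to 47) for 19 genes with the RefSeq start open in all 9 libraries, 23 (8 to 34) for 12 genes with it open in 1 to 8 libraries, and 5 (0 to 10) for 5 genes with it open in none. The 5 were Zbtb8b, Zbtb32, Zbtb20, Zbtb38 and Zbtb46. The RefSeq start is 1 position per gene, and Zbtb20, Zbtb38 and Zbtb46 had another coding start open in 9, 6 and 4 libraries, so of the 5 only Zbtb8b and Zbtb32 had no coding start called open. Zbtb17 and Bcl6, shown above, lay within the range of CpG of the starts open in all 9 libraries.

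**Figure D4:**
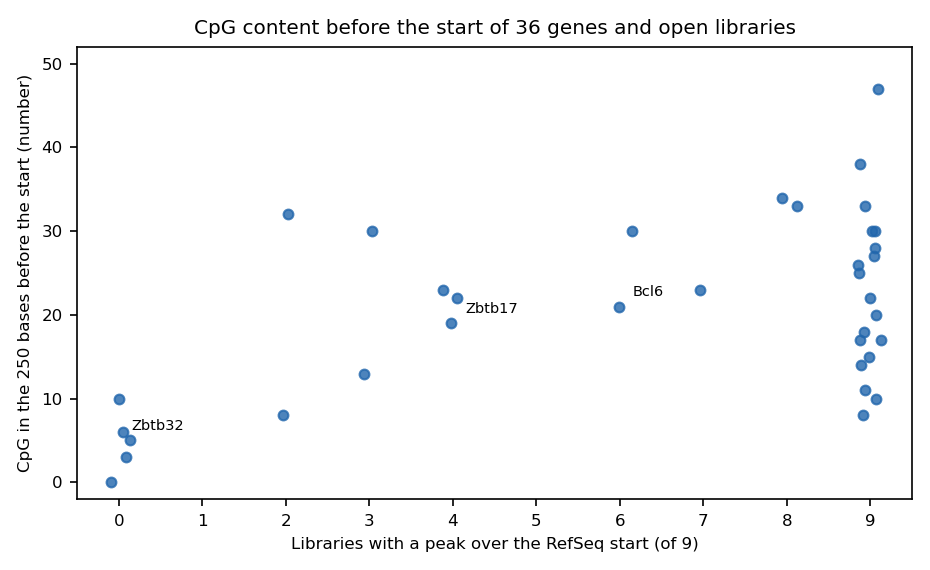
CpG dinucleotides in the 250 bases before the RefSeq start (number, vertical axis) against the number of libraries with a peak over that start (0 to 9, horizontal axis, points spread slightly sideways) for 36 genes, 1 point each. The 5 genes at 0 libraries have 0 to 10 CpG, and the 19 genes at 9 libraries have 8 to 47.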

How the data were processed

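ATAC-seq libraries of CD4SP, NKT, CLP and ILCP cells were grouped by the type their labels name. For these, the authors aligned 50 bp reads to mm10 with bowtie, called peaks with MACS in each library without pooling replicates, and the deposited lists hold the coordinates of every peak with its score. Picard and HOMER are named in the submitters' processing notes. The MACS version and settings, and any shift of read ends for the transposase, are not given in the sources used here. The lowest deposited score was 120 or slightly above in every library, so weak sites are missing, and scores were used only as ranks within a library, tied scores sharing a rank. The study's methods give only a common range of reads for these libraries, so the depth of each library is unknown and an interval that is not open was not called, rather than closed. The Runx1 chromatin immunoprecipitation and its input were not analysed here. No sample had been given a batch by the labels, and nothing in them says whether same-numbered replicates share an animal, so p-values measure the spread between these libraries.

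Peak positions were converted to counting from 1. Peaks sharing at least 1 bp were merged, and intervals were assigned to gene bodies of GENCODE M21 extended by 20 kb. Groups were compared by whether their libraries overlapped and by exact two-sided permutation tests, with Benjamini-Hochberg adjustment over the 17744 genes with an interval. Python 3.11.15, numpy 2.4.6, pandas 2.3.3, scipy 1.17.1, pysam 0.24.0 and matplotlib 3.10.9 were used, and the code was tested on simulated data. Genomic and promoter sequences came from the RefSeq GRCm38.p6 assembly, of which 36 of 41 promoters matched by symbol (not Bcl6b, Zbtb10, Zbtb40, Zbtb48 and Zbtb7c). Named were genes with a known lymphoid role or methyl-CpG binding, all genes called in a comparison, the 5 with the most intervals, and, per type, up to 3 specific intervals of the best mean rank. A marker gene and a gene for a BTB partner are not reported here. The members, lists and rules were chosen with earlier results of these data known. Alternatives were other peak thresholds, windows, assignments and measures, each library left out in turn, and the replicate number as a block.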

Additional observations from a re-analysis of the deposited data

Results flagged for a closer look

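1 interval was picked out because the cell types of the 2 tissues went opposite ways. The interval chr1:177427655-177428536, 14.3 kb upstream of Zbtb18, was open in 5 libraries, which were both NKT libraries and all 3 CLP libraries, and in no CD4SP or ILCP library. In the thymus it was thus open in the PLZF-expressing type and in the bone marrow in the other. Its ranks by score were 87% and 81.4% in NKT and 82.3%, 60.8% and 77.7% in CLP, so it was among the weaker peaks of each library. The difference between the tissues was not tested for this interval. No cell type had 4 or more libraries, so no test for a single outlying library was made within a type.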

How the results depend on the processing

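The calls rest on the presence or absence of peaks near a caller's threshold, in groups of 2 or 3 libraries. Over 168 recalculated differences of called genes with all libraries kept, 105 still had libraries that did not overlap, 60 no longer did and 3 turned. The 3 that turned were Zbtb17 (ILCP minus CLP 0.333 intervals with windows of 5 kb), Zbtb18 (0.5 with intervals over 1 kb from any start) and Zbtb45 (-88.2 bp when covered bases were counted). The cause was not tested.

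In brackets is the share of all genes, or of all intervals, under the same setting, where 1 gene is 2.44% of the 41 and 1 interval 0.463% of the 216 (132 of them with 5 kb windows and 119 over 1 kb from starts). Genes called above in NKT were 3 with all settings as reported (8.3%) and 1 with 5 kb windows (6.28%), and those called above in CD4SP were 1 (6.2%), and 0 with equal numbers of peaks (4.25%), with the upper 50% of peaks (3.53%) or with 5 kb windows (4.62%), 2 with covered bases (14.2%) and 6 per 10000 peaks (16.3%). Genes above in ILCP were 1 (4.28%), and 2 with equal numbers (8.32%) or the upper 50% (3.74%), 0 with 5 kb windows (3.62%), with intervals nearest the gene's own start (3.87%) or with covered bases (2.7%), and 7 per 10000 peaks (16.3%). Genes above in CLP were 8 (9.72%), and 3 with equal numbers (10.8%), 2 with the upper 50% (6.61%), 4 with 5 kb windows (6.96%), with nearest starts (6.56%) or over 1 kb from starts (7.53%), 5 with at least 50% of the interval covered (11.3%), 17 with covered bases (23.6%) and 5 per 10000 peaks (19.5%). The share of the 41 genes above in CLP, 19.5% as reported, thus lay below that of all genes with equal numbers (7.32%), the upper 50% (4.88%) and per 10000 peaks (12.2%). Genes above in thymus were 7 (12.6%), and 11 with at least 50% covered (12%) or covered bases (15%), and those above in bone marrow were 1 (3.58%), and 0 with the upper 50% (2.51%), 5 kb windows (2.96%), nearest starts (3.11%) or covered bases (4.41%), and 4 per 10000 peaks (10.5%). Intervals specific to NKT were 8 (4.3%), and 3 with equal numbers (1.88%), 2 with the upper 50% (1.9%) and 5 with 5 kb windows (4.04%). Those specific to CD4SP were 4 (3.46%), and 1 (1.79%), 1 (1.55%) and 2 (3.15%). Those specific to ILCP were 8 (6.34%), and 5 with equal numbers (6.14%) and 3 with the upper 50% (3.34%). Those specific to CLP were 12 (5.97%), and 7 with the upper 50% (2.82%), 5 kb windows (5.59%) or over 1 kb from starts (6.75%). Runx motifs stood in 26.4% of intervals, in 20.4% with TGTGGT alone (25.1% of all intervals) and in 69.4% over whole intervals (69.7%).

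The values without CLP replicate 1 for start sites, for intervals open in all libraries and for the sum of both differences were added after seeing the data. Leaving out a library cannot end a call under this rule and can only add some, so these counts say nothing about stability. The shares of all genes and intervals are given above where a library moved a count in NKT, CD4SP or CLP. Leaving out 1 library at a time gave 4 to 9 genes above in NKT (9 without CD4SP replicate 2 or NKT replicate 1, 5 without CD4SP replicate 1), 1 to 9 above in CD4SP (9 without NKT replicate 2, 7 without CD4SP replicate 1, 2 without CD4SP replicate 2), 1 to 3 above in ILCP (2 and 3 without ILCP replicates 1 and 2), 8 to 20 above in CLP (20 without CLP replicate 1), 7 to 11 above in thymus (11 without NKT replicate 1, against 15.6% of all genes) and 1 to 1 above in bone marrow. Specific intervals ranged from 10 to 20 in NKT (20 without NKT replicate 1, 15 without CD4SP replicate 2), 7 to 14 in CD4SP (13 and 7 without CD4SP replicates 1 and 2, 7 and 14 without NKT replicates 1 and 2), 8 to 12 in ILCP and 12 to 42 in CLP (42 without CLP replicate 1). With the replicate number as a block, 2 genes were above in CD4SP (8.79%) and 3 above in ILCP (6.04%), and the other 2 counts stayed within 1.5 times. Same-numbered libraries deviated together in thymus (r = 0.562 over the genes with an interval) and not in bone marrow (r of -0.104 and -0.0898). The numbers were not taken to pair samples in either tissue. The permutation tests therefore took the thymic libraries as independent, although their counts deviated together by replicate number.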
